A study of Mus musculus with 8 samples.

Results

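The carboxylesterase genes described here are 10 mouse genes of the Ces1 and Ces2 subfamilies, selected on gene symbol with earlier knockout against wild-type results of the same arrays known. They are Ces1c, Ces1d, Ces1f, Ces1g, Ces2a, Ces2b, Ces2c, Ces2e, Ces2g and Ces2h. A probe set, the group of probes that reads 1 gene, carried the symbol of 9 of the 10 genes, out of 19505 named genes on the array. All 4 Ces1 genes and 5 of 6 Ces2 genes were measured, each by 1 probe set, and Ces2c was not analysed here. Because the genes were picked with those results in view, their knockout minus wild-type differences are given as a description, without p-values. How many of them a fit over all probe sets called is also given as a description only and supports nothing.

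RNA came from bulk duodenum, snap-frozen and homogenized, of 4 knockout (KO) mice and 4 wild-type (WT) mice, and was hybridized to mouse Clariom S arrays. KO mice carried Villin-Cre and floxed alleles of Nfkbia, the gene of the NF-κB inhibitor IκBα. Cre under the Villin promoter acts in the intestinal epithelium, so other cells of the tissue keep the gene, and recombination removes the promoter and the first exons. Each KO mouse was set against 1 WT littermate, and the labels do not say whether those littermates carried Cre or floxed alleles. No treatment is named for either group. Both mice of pair 1 were male and 8 weeks old. Both mice of pair 2 were female and 11 weeks old. Pair 3 joined a KO male and a WT female, both 8 weeks old. Pair 4 joined a KO female and a WT male, both 9 weeks old. RNA integrity numbers were 8.5, 8.3, 8.3 and 7.0 in the KO mice of pairs 1 to 4, against 7.6, 8.7, 7.4 and 7.7 in their WT siblings.

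The values are log2 expression values over 22206 probe sets, so a difference of 1 is a doubling or halving of the linear signal. Array medians ran from 6.77 to 6.81. Nfkbia measured 6.82, 6.65, 7.72 and 6.65 in the KO mice of pairs 1 to 4, against 9.75, 9.91, 9.01 and 9.78 in their WT siblings. It fell by 2.65 ± 0.918 (SD over 4 pairs, limma adjusted p = 0.0130), so the arrays bear out their labels. All 12 epithelial markers were measured, with array means of 12.32 to 12.37 in KO and 12.36 to 12.42 in WT, and 0 of them passed the limma test, with 3 higher and 4 lower at an unadjusted p under 0.05. The deposited values hold almost no spread between litters. The median SD of the pair means was 0.0175, against 0.179 for the differences within pairs, and no step that would remove litter differences is recorded in the sources used here. Errors are therefore given as the SD of the 4 within-pair differences. The within-pair differences of pairs 1 and 2 correlated at r = 0.682 over all probe sets and those of pairs 3 and 4 at r = 0.673, against 0.346 to 0.420 for the other combinations. The 4 pairs may thus not be fully independent, and p-values may be too small.

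Carboxylesterases are serine hydrolases of the endoplasmic reticulum, some of which are also secreted, and they split ester and amide bonds in drugs, prodrugs, pesticides and lipids. In humans CES1 is the main form of liver and CES2 the main form of small intestine, where it acts on esters taken up with food or as oral prodrugs. Mice carry many tandem copies of both, so their paralogs are close in sequence, and probes for one copy may also read another. Ligands of the nuclear receptors PXR and CAR, which sense foreign compounds, raise several of the mouse Ces2 genes.

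Both subfamilies lie in gene clusters on mouse chromosome 8. RefSeq promoter windows, each 250 bases before to 50 bases after the annotated start, were at hand for 7 of the 10 genes, and 5 are shown to set genes that were lower in KO beside relatives whose groups overlapped. All are from build GRCm38.p6 and read 5′ to 3′ on the gene's own strand. Ces2a lies at chr8:104733753-104734052 (plus strand), Ces2e at chr8:104926010-104926309 (plus strand) and Ces2g at chr8:104961468-104961767 (plus strand). Ces1c lies at chr8:93131234-93131533 (minus strand) and Ces1g at chr8:93337160-93337459 (minus strand). Capitals mark the letters of the searched motifs, which are described after the sequences.
Ces2a: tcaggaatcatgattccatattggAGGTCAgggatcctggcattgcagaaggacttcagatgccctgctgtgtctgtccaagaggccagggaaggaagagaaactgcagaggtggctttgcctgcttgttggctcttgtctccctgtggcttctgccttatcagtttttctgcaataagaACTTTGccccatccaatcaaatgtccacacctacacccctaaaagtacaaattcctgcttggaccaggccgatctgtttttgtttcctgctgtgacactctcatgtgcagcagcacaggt
Ces2e: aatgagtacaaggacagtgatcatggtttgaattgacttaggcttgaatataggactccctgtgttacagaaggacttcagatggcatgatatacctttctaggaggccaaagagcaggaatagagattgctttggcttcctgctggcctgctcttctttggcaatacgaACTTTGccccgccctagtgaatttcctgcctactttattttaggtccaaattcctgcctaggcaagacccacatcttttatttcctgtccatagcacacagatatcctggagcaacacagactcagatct
Ces2g: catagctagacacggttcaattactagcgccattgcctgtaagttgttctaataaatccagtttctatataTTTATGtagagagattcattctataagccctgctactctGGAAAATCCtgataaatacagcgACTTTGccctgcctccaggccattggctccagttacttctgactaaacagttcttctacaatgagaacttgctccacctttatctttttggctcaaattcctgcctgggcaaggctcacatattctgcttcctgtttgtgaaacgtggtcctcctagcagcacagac
Ces1c: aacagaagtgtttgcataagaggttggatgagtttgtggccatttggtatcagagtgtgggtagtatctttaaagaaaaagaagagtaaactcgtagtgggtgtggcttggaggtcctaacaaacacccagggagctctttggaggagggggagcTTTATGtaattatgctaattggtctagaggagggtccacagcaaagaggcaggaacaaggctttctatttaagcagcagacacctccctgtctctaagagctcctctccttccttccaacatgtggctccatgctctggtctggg
Ces1g: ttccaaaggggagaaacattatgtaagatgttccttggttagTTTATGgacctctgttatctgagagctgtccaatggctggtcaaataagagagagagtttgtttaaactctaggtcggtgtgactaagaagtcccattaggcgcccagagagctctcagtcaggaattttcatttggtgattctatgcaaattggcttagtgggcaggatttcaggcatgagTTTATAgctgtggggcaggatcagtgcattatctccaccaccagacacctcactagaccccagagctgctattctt

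The motifs were searched on both strands, with overlaps allowed, and a match is only a match of letters. The core of HNF4-type sites, written ACTTTG, was chosen after the promoters had been read. Positions are counted from the annotated start, with bases before it negative. The motif began at −70 in Ces2a, at −80 in Ces2e and at −117 in Ces2g, which makes 3 of 7 windows, against 14.4% of all 32851 promoter windows. Ces2f, a relative outside the 10 genes, held it at −92. The letters therefore stood in Ces2a and Ces2e, which were lower in KO in every pair, and equally in Ces2g, which was not. The nuclear receptor half-site AGGTCA stood in 2 of 7 windows, against 16.3% of all windows. It began at −226 in Ces2a and at −212 in Ces2h, which has another copy on the opposite strand at −21. The CDX-type site TTTATG, named for the intestinal homeobox factors, stood in 3 of 7 windows, those of Ces1c, Ces1g and Ces2g, against 11.9% of all. The kappaB-like pattern GGNNNTTCC, the kind of site NF-κB factors bind, stood in 2 of 7 windows, those of Ces2c and, on the opposite strand, Ces2g, against 18.5% of all. The TATA box TATAAA stood in that of Ces1g on the opposite strand (13.6% of all windows), and the HNF1 half-site GTTAAT in none of the 7 (7.1% of all windows).

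The aligned windows of Ces2a and Ces2c shared 65.0% of positions, those of Ces2a and Ces2e 54.9%, and those of Ces2a and Ces2h 44.7%. Ces1c and Ces1g shared 50.7%. Pairs drawn from different subfamilies shared 43.6% to 48.5%, so Ces2h was no closer to Ces2a in this window than the Ces1 promoters were.

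Across the 9 measured genes, 5 were lower in KO than in WT in all 4 pairs (Ces1c, Ces2a, Ces2b, Ces2e and Ces2h), while 17.9% of all probe sets were lower in all 4 pairs. Ces1f was higher in KO in all 4 pairs, as were 16.5% of all probe sets. The remaining Ces1d, Ces1g and Ces2g changed sign between pairs. In the same genes and directions the groups did not overlap. With almost no spread between litters in these values, lack of overlap nearly follows from the pair signs and adds little to them. The 4 KO values lay below the 4 WT values for 5 of 9 genes, against 17.2% of all probe sets, and above them for Ces1f, against 15.9% of all probe sets. In the limma fit over all probe sets 4 of 9 were called lower (Ces1c, Ces2a, Ces2e and Ces2h), where 2.70% of all probe sets were called lower. None of the 9 was called higher at an adjusted p under 0.05, where 3.16% of all probe sets were. At an unadjusted p under 0.05 limma put 5 lower and 1 higher, where 6098 of all 22206 probe sets passed in either direction. The unadjusted counts given for gene and marker lists are to be read beside that share. Without pair 1, 2, 3 or 4 the fit called 1, 1, 2 and 1 of the 9, with Ces2a called each time and Ces1c called besides it without pair 3. Nothing is read from these shares, since the genes were picked on the same contrast. All 9 lay above the level of 5.65 used as background, which 95% of the 1091 probe sets for olfactory receptors did not reach.

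**Figure D1:**
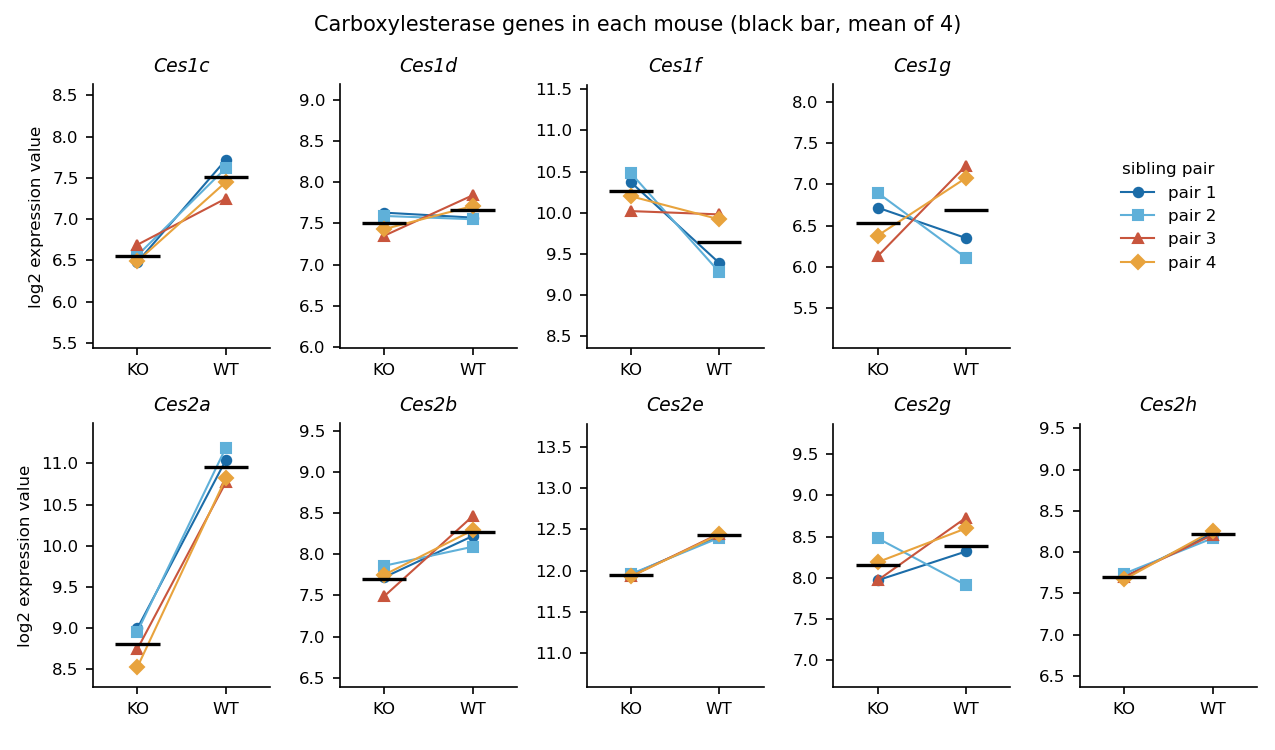
Log2 expression value of the 9 measured carboxylesterase genes in each KO mouse (left) and WT mouse (right) of 4 sibling pairs; every panel spans the same number of log2 units, lines join siblings and black bars are group means. Ces2a shows the steepest lines, Ces2e and Ces2h shallow and nearly parallel ones, and the lines of Ces1d, Ces1g and Ces2g rise in some pairs and fall in others.

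Ces2a was the member with the largest difference. It codes for an enzyme named in mice for splitting pyrethroid insecticides. Ces2a measured 9.00, 8.96, 8.75 and 8.53 in the KO mice of pairs 1 to 4, against 11.04, 11.19, 10.77 and 10.82 in their WT siblings. The highest KO value thus lay well under the lowest WT value. The pairs differed by −2.04, −2.23, −2.02 and −2.29, a mean of −2.15 ± 0.135 (SD, n = 4 pairs), or a 4.42-fold lower linear signal in KO. The difference was nearly the same in the same-sex pairs 1 and 2 and in the mixed-sex pairs 3 and 4. Under 16 settings of the fit it ran from −2.28 to −2.10, but several of these, such as those with sex or another block, leave the mean unchanged by design.

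Ces2e, whose product is likewise named as a pyrethroid hydrolase in mice, differed far less but with the least spread. It measured 11.95, 11.96, 11.93 and 11.93 in KO mice, against 12.42, 12.40, 12.45 and 12.44 in WT siblings. The mean difference was −0.49 ± 0.037, a 1.40-fold lower signal in KO. Values within each group spanned only a few hundredths of a log2 unit, so the small shift left a clear gap between groups.

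Ces2h measured 7.70, 7.74, 7.70 and 7.67 in KO mice, against 8.23, 8.17, 8.21 and 8.26 in WT siblings. Its mean difference of −0.52 ± 0.066 was close to that of Ces2e, and every KO value was below every WT value. Ces2b measured 7.72, 7.86, 7.49 and 7.75 in KO mice, against 8.22, 8.09, 8.46 and 8.29 in WT siblings. The gap between its groups was narrower and the pairs were less alike. The differences of Ces2b were −0.50, −0.23, −0.97 and −0.54, a mean of −0.56 ± 0.306, larger than those of Ces2e and Ces2h in mean size but with several times their spread. Ces2b was not called in the main fit and was called lower in 6 of the 16 settings.

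Ces2g was the Ces2 gene without a common direction. It measured 7.97, 8.48, 7.97 and 8.19 in KO mice, against 8.32, 7.91, 8.73 and 8.60 in WT siblings. The KO mouse of pair 2 was above its sibling and the other 3 KO mice were below theirs, and the groups overlapped. The mean difference of −0.24 was smaller than its SD of 0.568, and it was −0.51 without pair 2 and −0.06 without pair 3.

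Of the 4 Ces1 members, Ces1c alone was lower in KO in all 4 pairs. It codes for the carboxylesterase of mouse plasma. Ces1c measured 6.48, 6.56, 6.69 and 6.49 in KO mice, against 7.72, 7.62, 7.25 and 7.45 in WT siblings, with no overlap. Its differences were −1.24, −1.06, −0.56 and −0.96, a mean of −0.96 ± 0.288 and a 1.94-fold lower signal in KO. Pair 1 differed most and pair 3 least.

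The other 3 Ces1 genes take part in lipid metabolism of mouse liver and fat tissue. Ces1f codes for a triacylglycerol hydrolase, an enzyme that frees fatty acids from stored fat. It measured 10.37, 10.48, 10.02 and 10.20 in KO mice, against 9.39, 9.28, 9.98 and 9.92 in WT siblings. All KO values were above all WT values, but the lowest KO value, from pair 3, was only just above its sibling. The differences of Ces1f were 0.98, 1.20, 0.04 and 0.28, a mean of 0.63 ± 0.553.

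Ces1d codes for the main triacylglycerol hydrolase of mouse liver. It measured 7.63, 7.59, 7.35 and 7.43 in KO mice, against 7.57, 7.55, 7.84 and 7.71 in WT siblings, and its groups overlapped. Pairs 1 and 2 hardly differed (0.06 and 0.04), whereas KO was lower in pairs 3 and 4 (−0.49 and −0.28). Over the 4 pairs the mean of −0.17 was smaller than its SD of 0.266.

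Ces1g, whose loss in mice changes liver lipid metabolism, split most clearly between pairs. It measured 6.72, 6.90, 6.13 and 6.38 in KO mice, against 6.35, 6.11, 7.23 and 7.08 in WT siblings. KO was higher by 0.37 and 0.79 in pairs 1 and 2, and lower in pairs 3 and 4, with differences of −1.10 and −0.70. The mean of −0.16 ± 0.887 therefore describes none of the 4 pairs. It was 0.58 over pairs 1 and 2 and −0.90 over pairs 3 and 4, and it turned to 0.15 without pair 3 and 0.02 without pair 4.

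**Figure D2:**
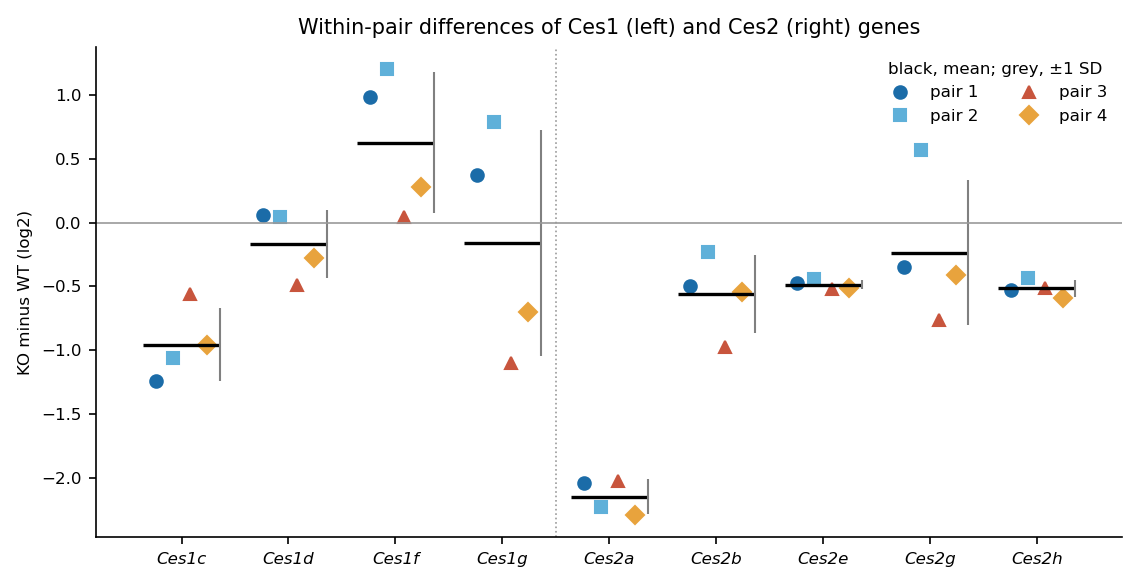
KO minus WT in log2 units for each sibling pair (points), with the mean over 4 pairs (black) and ±1 SD (grey), for the 4 Ces1 genes and the 5 Ces2 genes. The points of Ces2a lie together near −2.15, those of Ces2e and Ces2h near −0.49 and −0.52, and those of Ces1f, Ces1g and Ces2g are spread.

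Set against each other within pairs, the Ces1 genes had the higher median of KO minus WT in every pair. The Ces1 median was 0.215, 0.415, −0.525 and −0.49 in pairs 1 to 4, and the Ces2 median was −0.50, −0.43, −0.76 and −0.54. The gap, Ces1 minus Ces2, was 0.715, 0.845, 0.235 and 0.05, a mean of 0.46 ± 0.38 (SD, n = 4 pairs). It was wide in pairs 1 and 2 and near 0 in pair 4. Of the 5 Ces2 genes, 5, 4, 5 and 5 were lower in KO in pairs 1 to 4. Of the 4 Ces1 genes, 1, 1, 3 and 3 were lower. The median difference over all probe sets was −0.01 in each pair. In size the Ces2 genes were closer to each other than the Ces1 genes in pair 1 but not in pairs 2, 3 and 4. In pair 1 the differences ran from −1.24 to 0.98 over the Ces1 genes and from −2.04 to −0.35 over the Ces2 genes. In pair 2 they ran from −1.06 to 1.20 and from −2.23 to 0.57. The lowest Ces2 value was that of Ces2a in every pair. Taken from the 4-pair means, the median was −0.16 for the Ces1 genes and −0.52 for the Ces2 genes, beside −0.015 over all probe sets, and the gap was 0.35. That gap, taken from gene means over the pairs used, was 0.77 with pairs 1 and 2 alone and 0.0125 with pairs 3 and 4 alone. Inside single pairs the gap was 0.235 in pair 3 and 0.05 in pair 4, so only pair 4 was near 0. The gap taken from gene means over pairs was 0.62 with means over the genes in place of medians. It was 0.22, 0.19, 0.52 and 0.44 without pair 1, 2, 3 or 4. In the limma fit 1 of 4 Ces1 genes and 3 of 5 Ces2 genes were called lower, beside 2.70% of all probe sets. These counts are a description only, since the genes were picked on the same contrast.

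Markers of other cell types moved with the same division of the pairs. The 7 measured adipocyte markers, of 8 listed, had a median KO minus WT of 4.17, 3.91, 0.34 and −0.18 in pairs 1 to 4. Their summed linear signal ran from 1510 to 6412 in KO and from 731 to 2010 in WT, and Lep, the leptin gene, was below background. Ces1f and Ces1g were higher in KO in pairs 1 and 2, where this median was high, and Ces1f also in pairs 3 and 4 (0.04 and 0.28). In pairs 1 and 2 Ces1d hardly differed (0.06 and 0.04) and Ces1c was lower in KO (−1.24 and −1.06). The 8 measured pancreatic acinar markers, of 10 listed, had medians of −0.475, −0.015, −4.505 and −3.95, and their sum ran from 602 to 2191 in KO and from 2005 to 12940 in WT. Ces1d, Ces1g, Ces2b and Ces2g had their most negative differences in pairs 3 and 4, where the acinar markers were lower in KO. Limma called 0 genes of either list, with 5 adipocyte markers higher and 6 acinar markers lower at an unadjusted p under 0.05. The 6 smooth muscle markers had medians of 0.22, 0.02, −0.575 and −0.63 in pairs 1 to 4, and the 7 measured macrophage markers 0.36, 0.21, −0.03 and −0.40. Both lists were thus higher in KO in pairs 1 and 2 and lower in pairs 3 and 4, as Ces1g was and, with hardly a difference in pairs 1 and 2, Ces1d. The part of any of these 4 lists in the carboxylesterase values was not tested. Ces2a, Ces2e and Ces2h differed by nearly the same amount in pairs 1 and 2 as in pairs 3 and 4, with Ces2a at −2.14 and −2.16, Ces2e at −0.46 and −0.52, and Ces2h at −0.48 and −0.55. In bulk tissue, fewer cells of a type and less RNA per cell cannot be told apart.

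**Figure D3:**
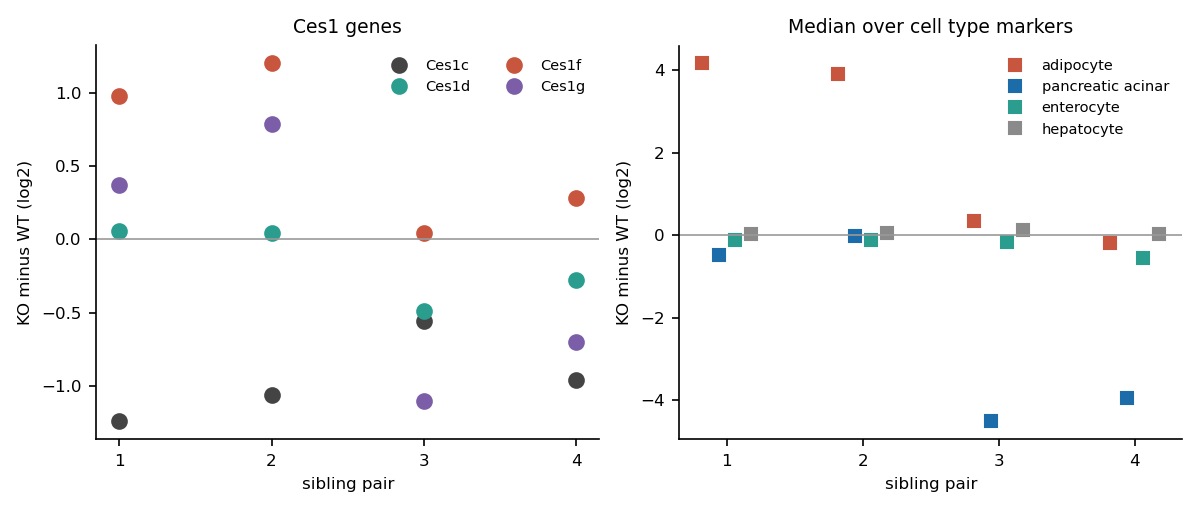
KO minus WT in log2 units by sibling pair for the 4 Ces1 genes (left) and for the median of 4 lists of cell type markers (right). Ces1f and Ces1g are high in pairs 1 and 2, where the adipocyte median is 4.17 and 3.91, and the acinar median is −4.505 and −3.95 in pairs 3 and 4.

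Enterocytes, the absorptive cells that hold most intestinal carboxylesterase, were followed with 12 markers. Their median difference was −0.12, −0.12, −0.16 and −0.56 in pairs 1 to 4. Limma called 2 lower, Lct (lactase) and Slc15a1 (the peptide carrier), and 0 higher, with 5 lower at an unadjusted p under 0.05. The markers' array means were 12.44 to 12.82 in KO and 12.90 to 13.34 in WT. That list thus lay lower in KO, by a median of −0.21, with markers from −2.84 to 0.32. By their 4-pair means, 6 of the 9 carboxylesterase genes differed by more than that median in the same direction, Ces2g (−0.24) only just. In pair 4 alone, Ces1c, Ces2a and Ces2h of these 6 exceeded the list median of −0.56. Ces2b (−0.54), Ces2e (−0.51) and Ces2g (−0.41) did not. The part of the enterocyte list in the carboxylesterase values was not tested. In liver Ces1 genes are abundant. The 10 hepatocyte markers had medians of 0.025, 0.055, 0.135 and 0.045 in pairs 1 to 4, and their mean differences ran from −0.84 to 2.10. Limma called 1 higher and 0 lower, with 3 higher and 1 lower at an unadjusted p under 0.05, and Alb, Ahsg and Arg1 were below background. Their part in the Ces1 values was not tested. Tat, a tyrosine-degrading enzyme, rose (2.10 ± 0.369, limma adjusted p = 0.00253). Cyp2e1, which fat tissue also expresses, differed by 3.10, 2.91, 0.34 and −0.05. Among the remaining marker lists limma called 2 of 7 crypt genes higher and 0 lower. At an unadjusted p under 0.05, 3 crypt genes were higher and 2 lower, and the median of the list was −0.05. Limma called 0 of 7 goblet, 0 of 6 smooth muscle and 0 of 7 macrophage genes (at an unadjusted p under 0.05, 0, 0 and 2).

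Of the rest of the family, 8 of 10 genes were measured and limma called 0, with 4 lower at an unadjusted p under 0.05 (median difference −0.18). Without pair 4 the fit called 1 of them. Near the Ces1 members, Ces1e, whose product egasyn holds β-glucuronidase in the endoplasmic reticulum, averaged 6.88 in KO and 7.04 in WT (−0.16 ± 0.217, adjusted p = 0.339). Ces1b averaged 5.84 in KO and 5.98 in WT (difference −0.14 ± 0.111, adjusted p = 0.299). Ces1a was below background in both groups (−0.20 ± 0.154, adjusted p = 0.179). Ces2f, the neighbour of Ces2e, was the only one of the 8 with a higher mean in KO, at 6.79 against 6.64 in WT (0.15 ± 0.239, adjusted p = 0.385). Ces5a, called cauxin in cats, where it is excreted in urine, averaged 6.73 in KO and 7.04 in WT (−0.31 ± 0.178, adjusted p = 0.0875). Ces3a, Ces3b and Ces4a were below background in both groups. Their differences were −0.33 ± 0.0876 (adjusted p = 0.0505), −0.47 ± 0.299 (adjusted p = 0.0695) and −0.14 ± 0.144 (adjusted p = 0.332).

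By gene order in RefSeq (GRCm38.p6), the Ces1 genes and Ces5a form one cluster and the Ces2, Ces3 and Ces4a genes another. The 16 nearest measured genes outside the family, 4 on each side of each cluster, were taken as neighbours. Limma called 1 of them higher and 0 lower, with 5 past an unadjusted p of 0.05 in all. Bbs2, a part of the BBSome complex of cilia, rose by 0.44 ± 0.198 (adjusted p = 0.0489). It was called in none of the 4 fits without 1 pair: those without pair 1, 2 or 4 called 0 neighbours, and that without pair 3 called 1 lower and 0 higher. Their median difference was 0.05, and the 8 around the Ces2 cluster ran from −0.19 to 0.17. Ces2a itself is the outermost gene of that cluster, so a difference of −2.15 stood next to −0.17 in Ciao2b, a gene of iron-sulfur protein assembly. On the Ces1 side Gnao1, a G protein subunit gene of nerve cells, had the lowest mean difference (−0.73, adjusted p = 0.0637). Ces1c and Ces1f, 2 genes of one cluster, differed in opposite directions with only Ces1d and Ces1e between them.

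**Figure D4:**
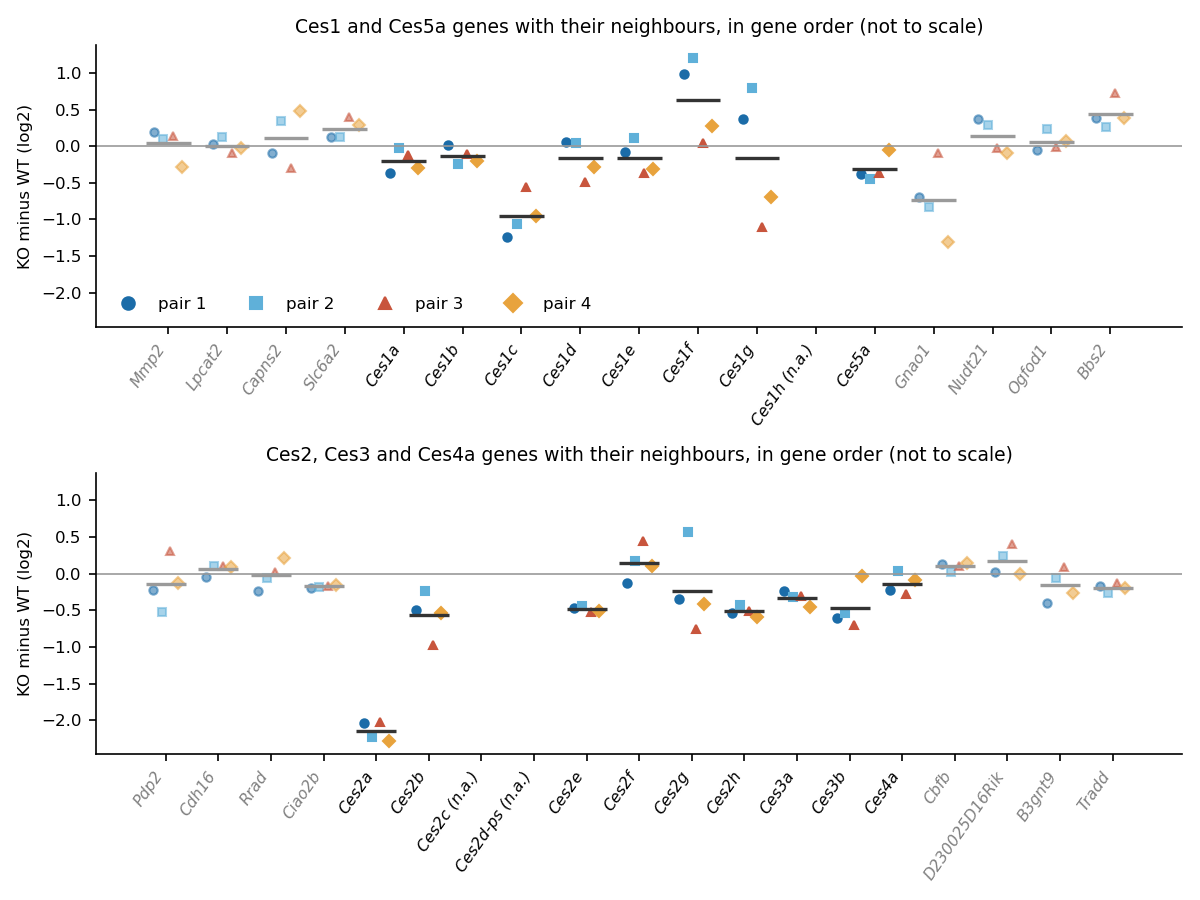
KO minus WT in log2 units by sibling pair (points) and their mean (bars) for the carboxylesterase genes (black names) and their 16 neighbours (grey names), in gene order and not to scale; n.a. marks genes not analysed here. Ces2a is near −2.15 beside neighbours between −0.19 and 0.17.

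Other ester hydrolases were covered by a list of 20 genes, all measured. Limma called 4 lower and 0 higher, with 6 lower and 2 higher at an unadjusted p under 0.05, and the median was −0.105. Aadac, the arylacetamide deacetylase of the endoplasmic reticulum, measured 7.02, 7.55, 7.45 and 7.09 in KO mice, against 8.68, 7.99, 8.95 and 9.31 in WT siblings. It fell by 1.46 ± 0.744 (adjusted p = 0.0322), least in pair 2 (−0.44). Nceh1, a hydrolase of cholesterol esters, averaged 7.99 in KO and 8.71 in WT and fell by 0.72 ± 0.181 (adjusted p = 0.0145). Cmbl, whose human form activates the ester prodrug olmesartan medoxomil, averaged 9.91 in KO and 10.60 in WT (−0.69 ± 0.309, adjusted p = 0.0330). Faah, which breaks down the endocannabinoid anandamide, averaged 8.83 in KO and 9.42 in WT (−0.59 ± 0.228, adjusted p = 0.0298). All 4 were lower in KO in every pair, as were Ces1c, Ces2a, Ces2e and Ces2h, and also Ces2b, which was not called. For genes called lower a common sign nearly follows from the call, so nothing is read from it. Without pair 1, 2, 3 or 4 the fit called 0, 1, 2 and 0 of the 20.

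Genes known as PXR or CAR targets outside the family were measured for 13 of 14 listed, some of which were known to differ from earlier results of these arrays. Limma called 8 lower and 2 higher, and the median was −1.19. The largest falls were in P450 genes. Cyp2c55 measured 4.87, 4.85, 5.90 and 5.62 in KO mice, mostly under background, against 10.26, 10.35, 9.02 and 9.24 in WT siblings (−4.41 ± 1.22, adjusted p = 0.00701), so the size of its difference may be understated. Cyp2b10, the classic CAR target, fell by 2.46 ± 1.15 (adjusted p = 0.0251). Cyp3a11, whose enzyme oxidizes many drugs, fell by 2.08 ± 0.433 (adjusted p = 0.00373). Its relative Cyp3a25 fell by 1.89 ± 0.476 (adjusted p = 0.00652). The 2 genes called higher were Abcc3, a basolateral exporter (1.35 ± 0.344, adjusted p = 0.00811), and Gstm1, a glutathione transferase (0.77 ± 0.451, adjusted p = 0.0480). Without pair 1, 2, 3 or 4 the fit called 7, 5, 8 and 4 of the 13.

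**Figure D5:**
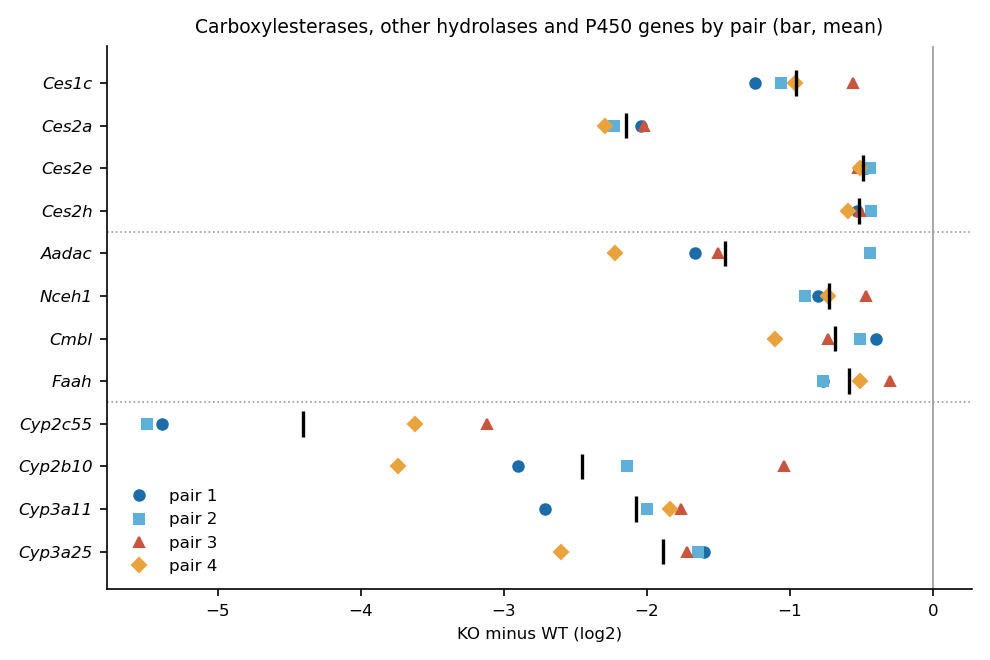
KO minus WT in log2 units by sibling pair (points) with the mean (bars) for the 4 carboxylesterase genes called lower (top), the 4 other ester hydrolases called lower (middle) and 4 P450 genes (bottom). Every point lies below 0, and Ces2a, Nceh1 and Faah have narrower ranges than Aadac, Cyp2c55 and Cyp2b10.

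Of 14 measured regulators of these genes, of 15 listed, limma called 0, with 3 higher and 2 lower at an unadjusted p under 0.05, and the median was 0.06. Without pair 3 the fit called 1. The 2 largest differences were those of Ppara, the fatty acid receptor (7.70 in KO and 8.20 in WT, −0.50 ± 0.294, adjusted p = 0.0601), and Keap1, which restrains the stress factor NRF2 (8.55 in KO and 8.20 in WT, 0.35 ± 0.227, adjusted p = 0.0867). Named for their role after their values were seen, Nr1i2, the PXR gene, averaged 9.48 in KO and 9.58 in WT (−0.10 ± 0.0499, adjusted p = 0.374), and Nr1i3, the CAR gene, averaged 8.57 in KO and 8.46 in WT (0.11 ± 0.357, adjusted p = 0.642). Hnf4a differed by 0.30 ± 0.202 (adjusted p = 0.108) and Hnf4g by −0.28 ± 0.124 (adjusted p = 0.0825). An adjusted p above 0.05 in 4 pairs does not show that a gene was the same in both groups.

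The genes most like Ces2a and Ces1c were sought among 19504 named genes by the root mean square distance between the 4 within-pair differences. Nearest to Ces2a was Pnliprp2, a pancreatic lipase-related gene, with differences of −2.31, −2.45, −1.72 and −2.36 and a distance of 0.233 log2 units. It was followed by Aqp7, a glycerol channel (0.386), Cyp3a25 (0.427) and Cyp3a11 (0.439). The closest family member, Ces1c, came only 88th, at 1.22, with smaller differences than Ces2a in every pair. Nearest to Ces1c was Gcnt1, a glycosyltransferase that builds branched O-glycans, with differences of −1.31, −1.20, −0.59 and −0.74 and a distance of 0.136. Rundc3b (0.166), the bile-side exporter gene Abcc2 (0.177) and Erlin1 (0.184) followed, and all 4 had their smallest difference in pair 3, as Ces1c had. The search picked genes on these same differences, so that likeness is largely built in. The nearest family members to Ces1c were Ces2h, at rank 271 (0.51), and Ces2e, at rank 354 (0.54).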

How the data were processed

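Per the submitters' processing notes, the authors processed the arrays with RMA in Transcriptome Analysis Console 4.0 and deposited 1 log2 value per probe set and array; no genome build, and no step that would remove litter differences, is named there. Gene names came from the platform's probe table (19572 of 22206 probe sets with 1 symbol, 0 with several, 2634 unnamed); for 55 genes with several probe sets the brightest was used. Differences are KO minus WT within the 4 sibling pairs that the labels name, with littermates per the series' design. limma 3.58.1 (R 4.3.3) was fitted to the log2 values of all probe sets with pair as a block (3 residual degrees of freedom, 6.63 after moderation), Benjamini-Hochberg adjusted over all of them, and was tested on simulated data. The simulated pairs were independent, so that test does not cover the correlation between pairs seen in these data. The members, gene lists, marker lists and the ACTTTG motif were chosen with earlier results of these data known. Named were all members and relatives, up to 4 called genes of each list by size or else the 2 largest, called neighbours, Nfkbia and the 4 genes nearest to Ces2a and Ces1c; Ciao2b, Gnao1, Tat, Cyp2e1, Lct, Slc15a1, Abcc3, Gstm1, Lep, Alb, Ahsg, Arg1 and 4 receptor genes were named after their values were seen. Promoter windows were aligned with Biopython 1.88. Fits without the block, with sex or RNA integrity (RIN 7.0 to 8.7), with other normalizations, centrings and variance models, and without each pair were the alternatives.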

Additional observations from a re-analysis of the deposited data

How the results depend on the processing

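No called difference changed sign, and 132 of the recomputed member differences (all but 3) moved by less than 1 SD of the pairs. That count says little about stability. Fits without the block, with a random block, with sex, with trend and robust variance or with only probe sets above background leave the mean unchanged by design. Leaving out 1 or 2 pairs cannot move a mean by 1 SD, so Ces1g was counted at both 0.58 and −0.90. Among genes not called, Ces1g became positive without pair 3 or 4, and Ces1g, Ces1d and Ces2g in pairs 1 and 2 alone (0.58, 0.05 and 0.11). Of the 9 genes, 4 were called in the main fit, 2 with RNA integrity added, and 1 to 2 without 1 pair, when Ces2a stayed called each time. Ces1c lost its call without pair 1, 2 or 4, and Ces2e and Ces2h without any 1 pair. In fits of pairs 1 and 2 alone and of pairs 3 and 4 alone, chosen after seeing the data, limma called 0 of 9. At an unadjusted p under 0.05 these fits put 7 and 8 of the 9, beside 5278 and 4144 of all 22206 probe sets. The Ces1 minus Ces2 gap, taken from gene means over the pairs used, was 0.77 in pairs 1 and 2 and 0.0125 in pairs 3 and 4. The fit without the sibling block called 6 of 9, adding Ces2b lower and Ces1f higher, and called 4 relatives, 8 ester hydrolases, 6 regulators, 5 neighbours and 7648 probe sets (1301 with it, 4026 lower and 3622 higher without). The random block called 2 relatives, 2 regulators, 5 PXR and CAR targets and 2018 probe sets. Relatives called were 4 with housekeeping centring and 0 to 1 without 1 pair. Ester hydrolases called were 1 with RNA integrity, 1 with sex, 0 in either fit of pairs alone and 0 to 2 without 1 pair. Regulators called were 2 with housekeeping centring, 1 with quantile normalization, 1 with sex, 2 with trend and robust variance and 0 to 1 without 1 pair. PXR and CAR targets called were 0 in either fit of pairs alone and 4 to 8 without 1 pair. Neighbours called were 0 with RNA integrity, 3 with housekeeping centring, 1 with sex, 0 in either fit of pairs alone and 0 to 1 without 1 pair; the 3 with housekeeping centring, the 1 with sex and the 1 without pair 3 were all lower, so Bbs2 was not called higher in any of these fits. Probe sets called were 364 with RNA integrity, 464 with sex, 4148 with housekeeping centring, 1997 with trend and robust variance, 0 in pairs 1 and 2, 26 in pairs 3 and 4, and 145 to 459 without 1 pair. Housekeeping centring (7 of 10 genes measured, median 0.185) moved the median of all probe sets to −0.15, and the share of calls that were higher was 12.9% with it, 68.7% with epithelial centring and 54.0% in the main fit, while the share was 66.7% without pair 1. Only 4 pairs and 3 residual degrees of freedom limit the precision. The causes of these changes were not tested.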
